A study of Oryza sativa with 51 samples.

Results

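The genes described here are the rice genes with the strongest daily change whose highest level fell in the last hours of the night, at hour 21 of the 24 h day. Levels are FPKM, a read measure corrected for transcript length and sequencing depth. The genes were selected on these measured levels. For each of 34653 genes, log2(FPKM + 0.5) was averaged over all lines and days at each of the 8 sampled clock hours. A gene was taken if its mean FPKM was at least 5, its highest hourly mean lay at least 3 above its lowest on the log2 scale, and that highest mean fell at hour 21. Only 32 genes met these limits, under the 150 that the rule allowed, so none was dropped for rank. The limit on the mean left 12085 genes, of which 855 were highest at hour 21. The limits on mean and range together, at any hour, left 1080. The height, the hour of the peak and the size of the daily range were used in this choice and are given as a description, without a test. Differences between lines and between days were not limits in it, though the mean over lines depends on each line.

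Flag leaves, the uppermost leaves of the rice shoot, were sampled at grain filling from field plots that shared one environment. The lines were the super-hybrid LY2186 (Liangyou2186) and its parents, of which SE21s is male-sterile and MH86 (Minghui86) is the restorer of fertility. Each line gave 17 strand-specific RNA sequencing libraries, 1 every 3 h over 48 h of Zeitgeber time (ZT), so that hour 0 has 3 libraries per line (ZT0, ZT24, ZT48) and every other hour has 2. The light schedule and the number of plants in a library are not given in the labels. A p-value covers only the variation among the sequenced libraries, and no 2 of them share a line and a time point. For single hours this is the variation between days. For levels and curves it is the variation of the line differences over the times. How much of it is technical is unknown. The labels name no applied agent and no transgene. In such bulk samples fewer cells of a type and less RNA per cell cannot be told apart.

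Plants time much of their gene expression with a circadian clock, a loop of repressors that switch each other off in turn through the day and night. The MYB repressor LHY is made around dawn and holds down genes of the evening and night. Expression that builds up before dawn is thought to prepare a leaf for light. Abscisic acid, a hormone that closes stomata in drought, is inactivated by abscisic acid 8′-hydroxylases.

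The deposited table gives no gene names, and the reference gene table matched 0 of its identifiers. The genes are therefore called by locus. Of 240 entries in 28 lists of rice genes, 1 belonged to the 32, the abscisic acid 8′-hydroxylase ABA8ox1 (LOC_Os02g47470). Its symbol, like those of LHY and the other abscisic acid genes, comes from general knowledge of rice genes and not from the files.

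The 32 genes had mean levels between 5.17 and 418 FPKM, with a median of 49.7. Their daily range had a median of 3.57 on the log2 scale and reached 5 or more in 5 genes. LOC_Os04g49450 had the largest, 8.95, from an hourly mean of −0.67 at hour 9 to 8.28 at hour 21. LOC_Os06g19444 followed with a range of 7.25, LOC_Os10g41550 with 6.66 and LOC_Os01g32770 with 6.44. At the other end, LOC_Os03g05750 and LOC_Os01g59350 were just inside the limit of 3, both with a range of 3.06. LOC_Os01g04330 (range 3.00, unrounded below 3) and LOC_Os08g39450 (2.94) were just outside. The lowest hourly mean fell at hour 3 in 13 genes, hour 9 in 12, hour 6 in 5 and hour 12 in 2.

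**Figure D1:**
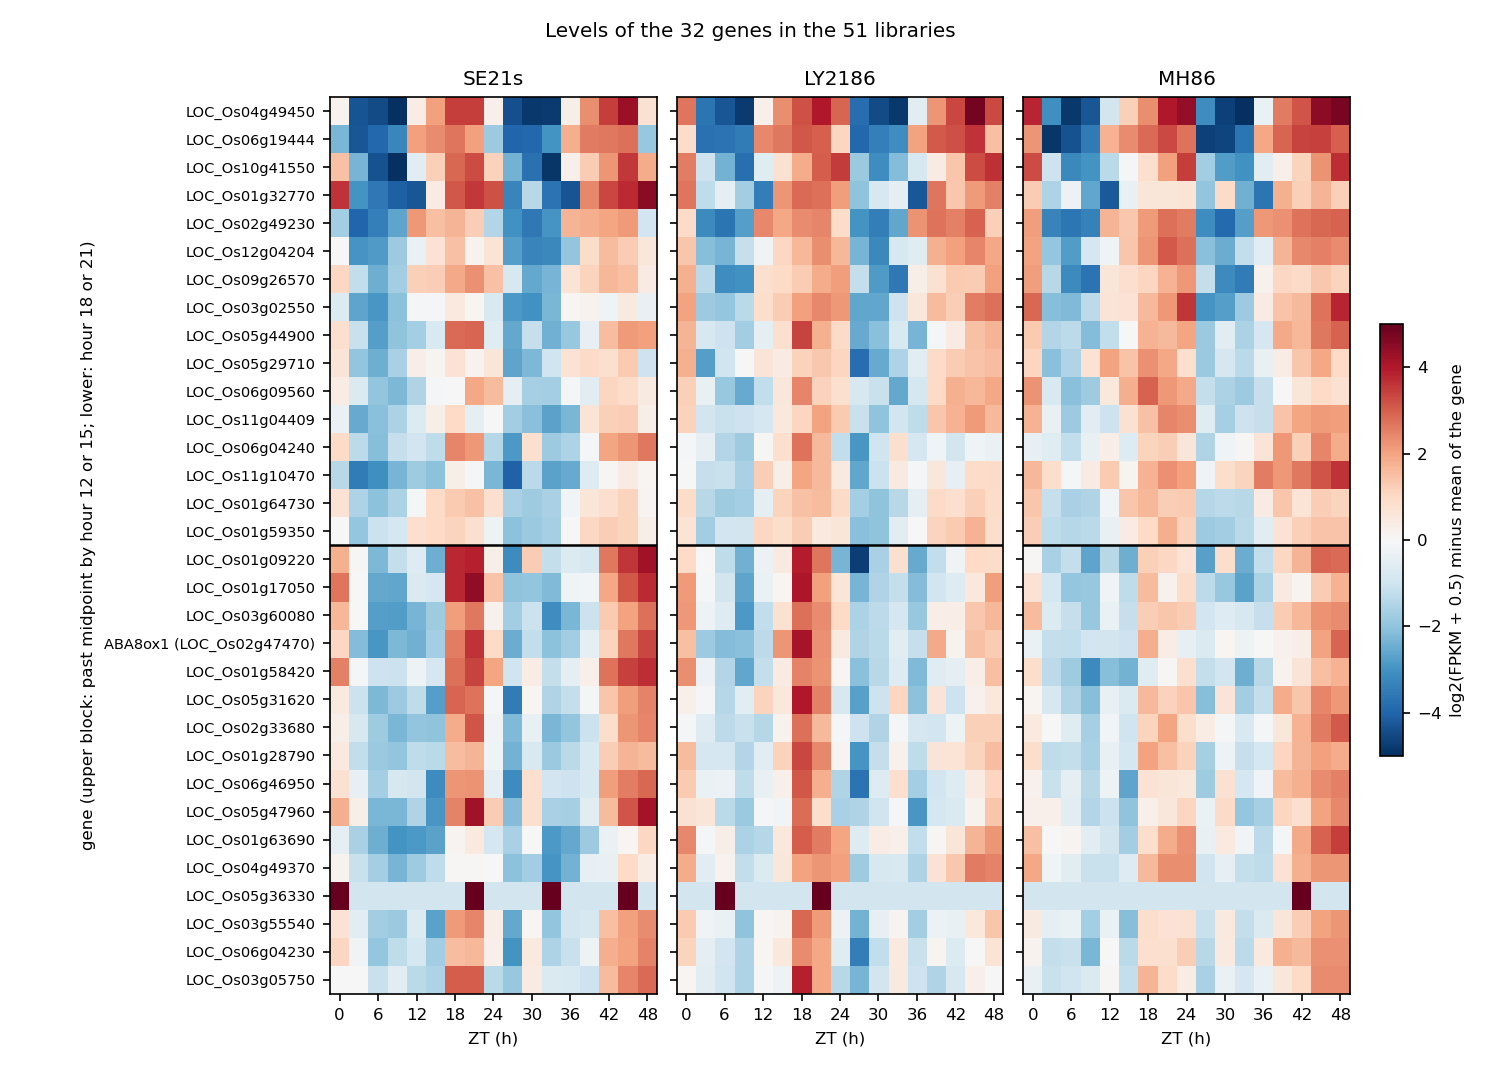
Level of each of the 32 genes (rows) in each of the 51 libraries, as log2(FPKM + 0.5) minus the gene's mean over all libraries, with ZT in h on the horizontal axis and 1 panel per line. Red is above and blue below the mean, and colours stop at 5 in either direction. The black line parts the 16 genes that were past the midpoint of their range by hour 12 or 15 from the 16 that passed it at hour 18 or 21, and 14 of the lower 16 have their highest LY2186 value at ZT18.

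The genes reached the middle of their range at different hours. Counting from the trough, 9 were past the midpoint by hour 12, 7 by hour 15, 15 by hour 18 and 1 by hour 21. The first 16 are called early-rising and the other 16 late-rising below, a division made after the values were seen and used only to describe them. The early-rising genes were LOC_Os04g49450, LOC_Os06g19444, LOC_Os10g41550, LOC_Os01g32770, LOC_Os02g49230, LOC_Os12g04204, LOC_Os09g26570, LOC_Os03g02550, LOC_Os05g44900, LOC_Os05g29710, LOC_Os06g09560, LOC_Os11g04409, LOC_Os06g04240, LOC_Os11g10470, LOC_Os01g64730 and LOC_Os01g59350. The late-rising genes were LOC_Os01g09220, LOC_Os01g17050, LOC_Os03g60080, ABA8ox1, LOC_Os01g58420, LOC_Os05g31620, LOC_Os02g33680, LOC_Os01g28790, LOC_Os06g46950, LOC_Os05g47960, LOC_Os01g63690, LOC_Os04g49370, LOC_Os05g36330, LOC_Os03g55540, LOC_Os06g04230 and LOC_Os03g05750.

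The early-rising genes repeated their course from one day to the next more closely. Around the mean of each line and hour, the SD between days had a median of 0.44 on the log2 scale in the early-rising genes (range 0.25 to 1.22) and 1.08 in the late-rising ones (0.44 to 2.10), against 0.28 over all 16842 genes tested. The deviations of the late-rising genes ran together: over the 51 libraries the correlation of 2 such genes had a median of 0.83 over 120 pairs, from −0.17 to 0.97. The same median was 0.13 over 120 pairs of early-rising genes. These correlations are a description, since all genes share the libraries and their scaling.

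In LY2186 most late-rising genes were high in the first night and low in the second. In 14 of the 16 the highest LY2186 value was that of ZT18, and 15 were higher at ZT18 than at ZT42, the same hour a day later, with a median difference of 3.16 on the log2 scale. The same difference had a median of 0.68 in SE21s, with 14 genes higher at ZT18, and of −0.48 in MH86, with 5. LOC_Os01g09220, the late-rising gene with the largest range, read 860 FPKM in LY2186 at ZT18 and 48.9 at ZT42, beside 770 and 347 in SE21s and 128 and 184 in MH86. Each time point has 1 library per line, so a difference between nights within a line has no replicate check. The relative depth estimated from low values was 2.12 at LY2186 ZT18 and 1.91 at ZT42, and the part of such technical differences was not tested.

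Most late-rising genes ended the series high in the parents. At ZT48, 15 of the 16 late-rising genes in SE21s and 14 in MH86 exceeded their own values at both ZT0 and ZT24, against 5 in LY2186. In SE21s LOC_Os01g09220 read 191, 68.5 and 1022 FPKM at ZT0, ZT24 and ZT48. Among early-rising genes the count was 10 in SE21s, 11 in LY2186 and 9 in MH86.

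**Figure D2:**
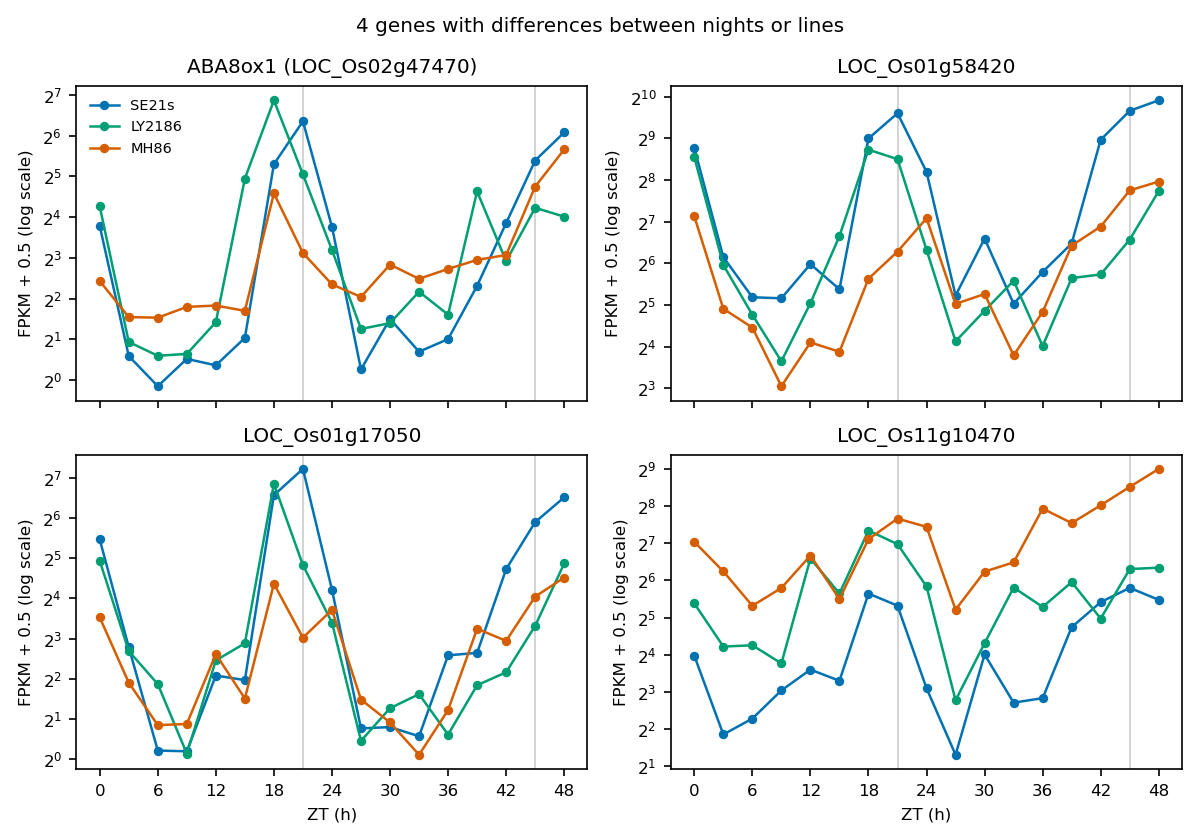
FPKM + 0.5 on a logarithmic axis against ZT in h for ABA8ox1, LOC_Os01g58420, LOC_Os01g17050 and LOC_Os11g10470, with 1 line and 1 point per library for each rice line and grey verticals at ZT21 and ZT45. ABA8ox1 reached 116 FPKM in LY2186 at ZT18 and 7.05 at ZT42, LOC_Os01g58420 was higher in SE21s than in MH86 at all 17 times, and LOC_Os11g10470 was lower in SE21s than in MH86 at all 17 times.

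Within single lines the highest hourly mean did not always fall at hour 21. It did so in 24 genes in SE21s, 21 in MH86 and 15 in LY2186. It fell at hour 18 in 6, 3 and 12 genes and at hour 0 in 1, 7 and 4, in the same order of lines. The next question was whether the lines left the pre-dawn peak at the same time. In several of the genes with the largest ranges they did not: by hour 0 these genes had already fallen in SE21s, were part of the way down in LY2186 and were still near their peak in MH86. LOC_Os04g49450 read 19.3, 20.0 and 28.8 FPKM in the 3 SE21s libraries of hour 0, 112, 130 and 172 in LY2186, and 241, 370 and 465 in MH86. The 3 lines did not overlap, with LY2186 between its parents. At hour 21 the same gene read 191 and 335 in SE21s, 277 and 475 in LY2186, and 279 and 383 in MH86, so that there the lines overlapped. Its change from hour 21 to hour 0 was 3.56 ± 0.47 (SE) lower on the log2 scale in SE21s than in MH86 (limma, adjusted p = 1.7e-05).

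LOC_Os06g19444 showed the same order. At hour 0 it read 4.71, 6.67 and 6.30 FPKM in SE21s, 47.3, 52.7 and 71.1 in LY2186, and 117, 167 and 198 in MH86, again without overlap between lines. At hour 21 it read 105 and 168 in SE21s, 200 and 308 in LY2186, and 250 and 270 in MH86. SE21s was lower there too, but its further fall to hour 0 was 3.67 ± 0.33 steeper on the log2 scale than that of MH86 (limma, adjusted p = 3.1e-08).

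**Figure D3:**
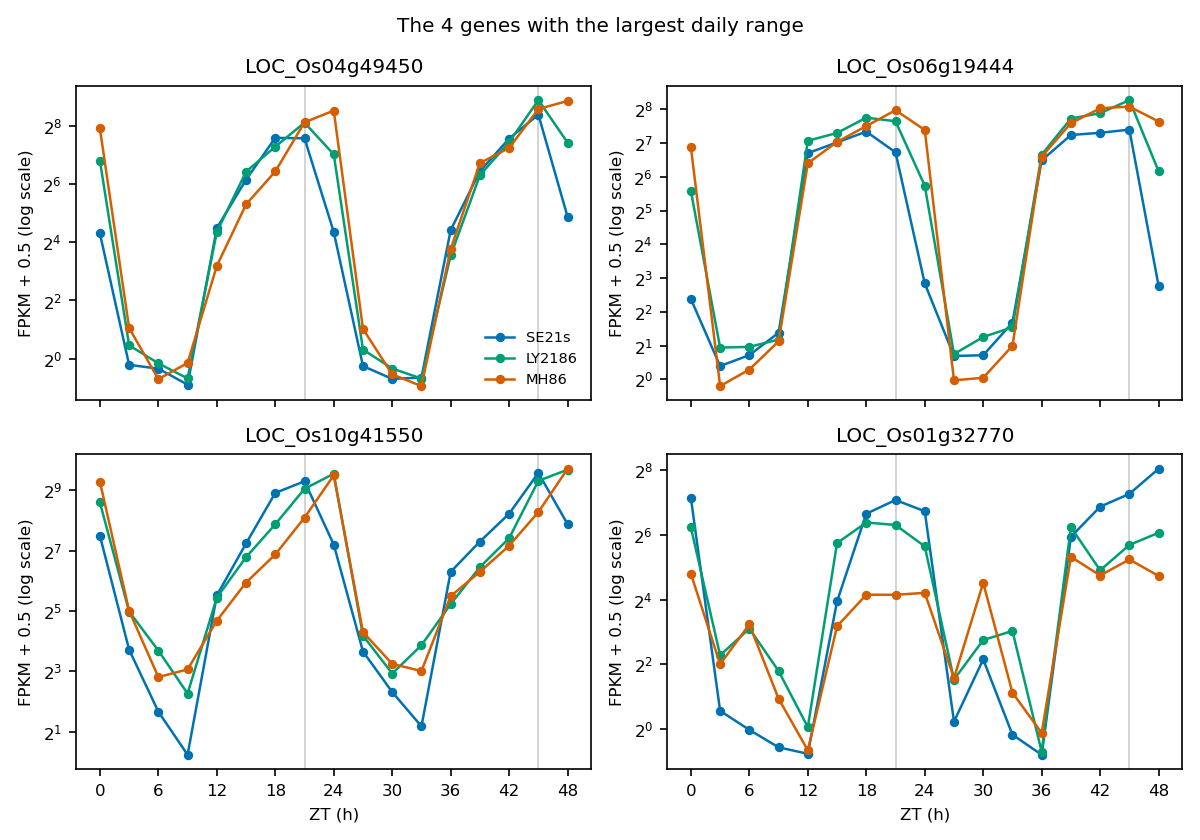
FPKM + 0.5 on a logarithmic axis against ZT in h for the 4 genes with the largest daily range, with 1 point per library, 1 colour per line and grey verticals at ZT21 and ZT45. In LOC_Os04g49450 and LOC_Os06g19444 the lines are closer from hour 15 to hour 21 than at ZT0, ZT24 and ZT48, where SE21s is lowest and MH86 highest, while LOC_Os01g32770 is highest in SE21s at those times.

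In all, 5 of the 32 genes (15.6%) changed differently between hour 21 and hour 0 in SE21s and MH86, all with the more negative change in SE21s, against 1.25% of all genes called in either direction and 1.04% in this one. Beside the pair above these were LOC_Os10g41550 with a difference of −3.23 ± 0.54, LOC_Os02g49230 with −2.78 ± 0.44 and LOC_Os03g02550 with −1.82 ± 0.44 on the log2 scale. LOC_Os10g41550 at hour 0 read 180, 147 and 234 FPKM in SE21s, 387, 747 and 821 in LY2186, and 624, 722 and 838 in MH86. Here LY2186 overlapped MH86 and SE21s lay below both.

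LOC_Os02g49230 at hour 0 read 4.56, 5.73 and 8.33 FPKM in SE21s, 32.8, 31.8 and 37.9 in LY2186, and 71.4, 102 and 130 in MH86. LOC_Os03g02550 read 25.8, 24.4 and 32.4 in SE21s, 168, 189 and 285 in LY2186, and 305, 496 and 592 in MH86. Neither gene overlapped between lines at hour 0. All 5 genes were early-rising. The difference was below 0 in 29 of the 32 genes, with a median of −0.88, while the median over all genes was 0. The 16 late-rising genes had a median of −0.88 as well. Their spread between nights was larger, so that the lack of a call among them does not show equal timing.

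The same change within each line puts the lines in order. From hour 21 to hour 0 the median change was −1.14 on the log2 scale in SE21s, −0.57 in LY2186 and −0.23 in MH86. Hour 0 stood above hour 21 in 1, 5 and 9 genes. The order SE21s, LY2186, MH86 held in 24 of the 32 genes. It was not counted over all genes, and the deviations of the late-rising genes ran together, so these genes are not separate cases. That the mean over the lines fell after hour 21 was set by the choice of genes. This bears on the order too: a gene still rising in some lines was taken only if another line fell. LOC_Os10g41550, among the genes called above, changed by 1.31 in MH86, 0.10 in LY2186 and −1.91 in SE21s. Chosen without SE21s, 14 of the 32 genes were taken again. How much of the order, or of the share of calls above, comes from the choice was not tested.

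**Figure D4:**
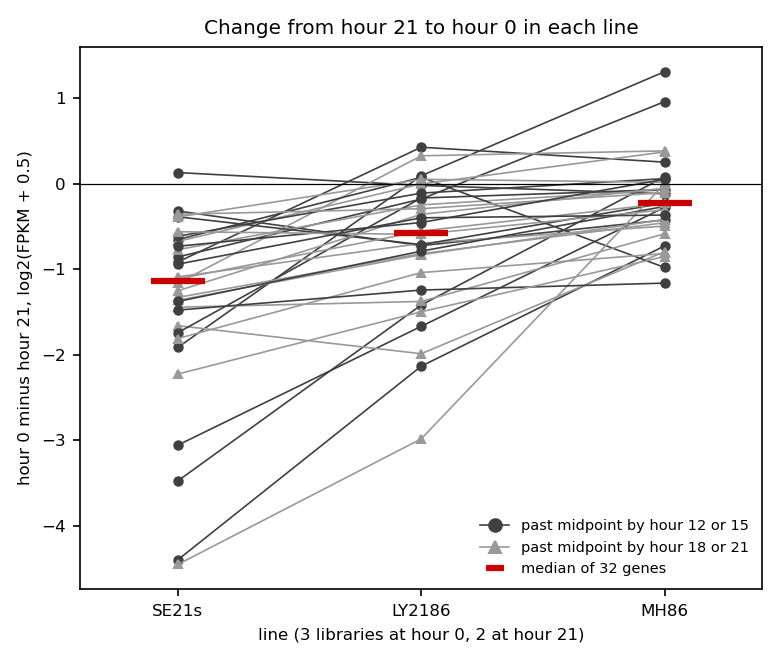
Change from hour 21 to hour 0 on the log2(FPKM + 0.5) scale for each of the 32 genes in SE21s, LY2186 and MH86 (3 libraries at hour 0 and 2 at hour 21 in each line), with circles for early-rising and triangles for late-rising genes, thin lines joining 1 gene and red bars at the median. The medians rise from −1.14 in SE21s through −0.57 in LY2186 to −0.23 in MH86.

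LHY itself moved over the same hours. It is not one of the 32 genes, since it peaks at dawn. At hour 21 it read 1692 and 1773 FPKM in SE21s, 189 and 453 in LY2186 and 55 and 92.5 in MH86, without overlap, and at hour 21 SE21s exceeded MH86 by 4.59 ± 0.29 on the log2 scale (limma, adjusted p = 6.0e-14). Its part in the fall of the 32 genes was not tested.

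At hour 0 taken alone, 14 of the 32 genes (43.8%) differed between SE21s and MH86, near the 42.8% of all genes. Their direction was uneven: 13 were lower in SE21s, against 24.6% of all genes, and 1 was higher, against 18.2%. In 13 genes all 3 SE21s libraries lay below all 3 MH86 libraries, and in 2 all lay above. The same was not counted over all genes, so these counts only describe the 32. The largest differences were those of LOC_Os06g19444, −4.64 ± 0.21, and LOC_Os03g02550, −4.01 ± 0.28. The gene higher in SE21s was LOC_Os01g32770, with 140, 105 and 261 FPKM in SE21s, 74.2, 49.4 and 66.2 in LY2186, and 27.3, 18 and 26 in MH86. Its lines did not overlap, and SE21s exceeded MH86 by 2.72 ± 0.53 on the log2 scale (limma, adjusted p = 0.00012). Of the 14 genes, 12 were early-rising.

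Earlier in the night the calls went both ways. At hour 18, 5 genes (15.6%) differed between SE21s and MH86 against 23.6% of all genes, 3 higher in SE21s (11.7%) and 2 lower (12%). Higher in SE21s were LOC_Os10g41550, with 481 and 299 FPKM against 117 and 143 in MH86, LOC_Os01g32770 and LOC_Os01g58420. Lower were LOC_Os03g02550, with 58.2 and 35.2 FPKM against 127 and 129, and LOC_Os04g49370, with 32.7 and 24.3 against 97.2 and 107. In all 5 genes the parents did not overlap. Only 3 genes were called without the SE21s library of ZT18 or the MH86 library of ZT18, and 2 without the SE21s library of ZT42.

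At hour 21, 13 genes (40.6%) differed between SE21s and MH86 against 37.3% of all genes, 5 higher in SE21s (17% of all genes) and 8 lower (20.4%). LOC_Os12g04204 read 231 and 500 FPKM in SE21s and 1718 and 1172 in MH86, a difference of −2.06 ± 0.43 (limma, adjusted p = 0.00030). LOC_Os03g02550 read 43.9 and 56.4 in SE21s and 190 and 278 in MH86, and was lower by −2.19 ± 0.34. LOC_Os01g32770 went the other way, with 134 and 153 FPKM in SE21s and 17.2 and 37.2 in MH86, and was higher by 2.47 ± 0.65. In these 3 genes the parents did not overlap. Without the SE21s library of ZT21 the count fell to 5 genes.

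The change from hour 18 to hour 21 gave 0 calls among the 32 genes for any pair of lines, against 0.582% of all genes for SE21s and MH86, 0.172% for LY2186 and SE21s and 0.0119% for LY2186 and MH86. At an unadjusted p under 0.05 in limma the counts were 4, 2 and 1.

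LOC_Os05g36330 needs a separate word. It was listed at 0 in 44 of the 51 libraries and read 30.7 to 96.6 FPKM in the other 7, among them ZT0, ZT21, ZT33 and ZT45 of SE21s. An exact 0 in such a table can be a failed estimate. Its call at hour 21, higher in SE21s than in MH86, rests on 82.9 and 47.6 FPKM against 0 and 0, and no fold is given. Without this gene the counts of called genes stay as they are, except that 12 genes are called at hour 21. Among the descriptions above it is the gene that passed its midpoint at hour 21. Without it 15 genes are late-rising, the change from hour 21 to hour 0 was lower in SE21s than in MH86 in 28 of 31 genes, and the order of the lines held in 23.

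The hybrid was set against each parent. At hour 0 LY2186 exceeded SE21s in 10 of the 32 genes (31.2%, against 23.9% of all genes in either direction and 13.1% higher). LY2186 was below MH86 in 5 genes (15.6%, against 14.5% in either direction and 7.69% lower). Every call against SE21s was higher in LY2186 and every call against MH86 lower. Without the MH86 library of ZT48 the count against MH86 was 3. With the time point as a block, so that lines are compared within their shared times, 16 genes differed from SE21s (33.2% of all genes), 14 higher and LOC_Os01g32770 and LOC_Os05g47960 lower in LY2186, and 6 from MH86 (22%), LOC_Os01g32770 being higher in LY2186. The first were led by LOC_Os06g19444, 3.16 ± 0.21 above SE21s on the log2 scale, and LOC_Os03g02550, 2.91 ± 0.28 above. The second were LOC_Os06g19444, 1.47 ± 0.21 below MH86, LOC_Os02g49230, 1.51 ± 0.28 below, LOC_Os04g49450, LOC_Os03g02550 and LOC_Os11g10470. The mean of LY2186 at hour 0 lay between those of its parents in 21 of the 32 genes, which was not counted over all genes. These comparisons share the LY2186 libraries.

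Between hour 21 and hour 0 the hybrid's fall was less steep than that of SE21s in 2 genes (6.25%, against 1.34% in either direction and 1.1% in this one), LOC_Os06g19444 by 2.26 ± 0.33 and LOC_Os04g49450 by 2.06 ± 0.47. Of these, LOC_Os04g49450 had the larger adjusted p in limma, 0.019 against 0.00013. The count was 1 under several alternatives, among them leaving out the SE21s library of ZT0 or ZT24 or the LY2186 library of ZT21 or ZT48. With the time point as a block the count was 5 (2.19% of all genes), adding LOC_Os10g41550, LOC_Os02g49230 and LOC_Os09g26570 in the same direction. Against MH86 0 genes were called, beside 0.0119% of all genes. Blocked, the call of LOC_Os06g19444 was added, with a difference of −1.41 ± 0.23 (limma, adjusted p = 0.018). Without the block 5 had an unadjusted p under 0.05 in limma.

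At hour 21 LY2186 exceeded SE21s in 6 genes (18.8%, against 24.3% either way and 13.7% higher), among them LOC_Os03g02550, with 223 and 249 FPKM against 43.9 and 56.4, by 2.23 ± 0.34. LOC_Os04g49370 read 147 and 194 FPKM in LY2186 against 33 and 62.3 in SE21s, a difference of 1.88 ± 0.43. Neither overlapped between the lines. Most of the 32 genes lay the other way: 19 had the lower mean in LY2186, with a median difference of −0.40 beside 0.09 over all genes, and 13 of these were late-rising. With the time point as a block 2 of them passed the test, LOC_Os01g17050 and LOC_Os05g47960, beside 7 higher in LY2186. Under that block 35.7% of all genes were called in either direction. Without the SE21s library of ZT21 and without the block the count was 1.

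At hour 18 LY2186 exceeded SE21s in 2 genes (6.25%, against 10.8% either way and 6.3% higher), LOC_Os03g02550 by 1.5 ± 0.34 and LOC_Os04g49370 by 1.83 ± 0.43. The count was 0 without the LY2186 library of ZT18 and 0 without the SE21s library of ZT42. Against MH86, 0 genes were called at hour 18 (3.3% of all genes) and 0 at hour 21 (5.12%), with 0 and 1 at an unadjusted p under 0.05 in limma.

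Averaged over the 17 times, 18 of the 32 genes (56.2%) differed in level between SE21s and MH86, against 69% of all genes. Lower in SE21s were 15, against 40.4% of all genes, and higher were 3, against 28.6%. The median difference was −0.40 on the log2 scale, beside −0.08 over all genes. LOC_Os11g10470 had its lowest, median and highest values at 1.98, 11.6 and 55.2 FPKM in SE21s, 6.36, 49.7 and 162 in LY2186, and 36.6, 131 and 511 in MH86. SE21s lay below MH86 at all 17 times, with a mean difference of −3.13 ± 0.23 (limma, adjusted p = 2.2e-14), and LY2186 was 1.53 ± 0.23 below MH86.

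LOC_Os04g49370 had its lowest, median and highest values at 3.58, 14.2 and 62.3 FPKM in SE21s, 8.66, 46.9 and 194 in LY2186, and 12.5, 27.1 and 157 in MH86. It was below MH86 in SE21s at all 17 times, by −1.42 ± 0.13 on the log2 scale (limma, adjusted p = 5.1e-12). In the opposite direction, LOC_Os01g58420 had its lowest, median and highest values at 32.2, 88.6 and 963 FPKM in SE21s and 7.78, 37.9 and 249 in MH86. It was higher in SE21s at all 17 times, by 1.57 ± 0.27 (limma, adjusted p = 6.4e-06), with LY2186 1.1 ± 0.27 below SE21s. LOC_Os01g17050 was higher in SE21s by 0.85 ± 0.30, at 11 of the 17 times. The ranges over the day overlapped in all of these genes.

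Levels of LY2186 over the 17 times were set against each parent and against the parental mean. Against SE21s they differed in 10 genes (31.2%, against 57.2% of all genes), 9 of them higher (32.8% of all genes) and 1 lower (24.5%). LOC_Os01g63690 had lowest, median and highest values of 0.75, 2.73 and 19.9 FPKM in SE21s, 2.82, 12.3 and 81.3 in LY2186, and 2.51, 10.6 and 110 in MH86. LY2186 exceeded SE21s at all 17 times, by 1.91 ± 0.21, and LOC_Os04g49370 did so at all 17 times, by 1.48 ± 0.13.

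Against MH86 LY2186 differed in 3 genes (9.38%, against 32.4%), all lower in LY2186 (17.6% of all genes): LOC_Os11g10470, LOC_Os01g64730 by −0.24 ± 0.07, and LOC_Os02g33680. It was above the mean of its parents in 3 genes (9.38%, against 26.8% either way and 16.3% above). These were LOC_Os01g63690 by 0.97 ± 0.18, above the parental mean at 15 of 17 times, LOC_Os04g49370 by 0.77 ± 0.11, at 16 of 17 times, and LOC_Os03g02550, at all 17. Level calls used the time point as a block. Without it the daily swing enters the error, and 5 genes were called between the parents, 3 between LY2186 and SE21s, 1 between LY2186 and MH86 and 0 against the parental mean.

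The daily curve as a whole was tested with 24 h cosine and sine terms, which cover the size and the time of the swing together. The curve differed between SE21s and MH86 in 12 of the 32 genes (37.5%, against 27.5% of all genes), 9 of them early-rising. LOC_Os01g32770 had the smallest adjusted p (limma, 2.9e-06), with a daily range of 8.07 on the log2 scale in SE21s, 6.31 in LY2186 and 5.07 in MH86. LOC_Os01g59350 was next (limma, adjusted p = 4.3e-05), with its highest hourly mean at hour 18 in SE21s and LY2186 and at hour 21 in MH86. LY2186 differed from SE21s in 6 genes (18.8%, against 12.6%), first LOC_Os01g32770 and LOC_Os10g41550, and from MH86 in LOC_Os01g59350 alone (3.12%, against 2.33%). Against the parental mean 0 genes were called (0.808% of all genes), and 4 had an unadjusted p under 0.05 in limma.

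ABA8ox1, which begins the breakdown of abscisic acid, was the one gene of the 32 that the gene lists hold. It was low by day, between 0.40 and 6.63 FPKM at hours 3 to 9 in all lines. At hour 21 it read 81.0 and 41.4 FPKM in SE21s, 32.5 and 18.2 in LY2186, and 8.19 and 26.4 in MH86, so that LY2186 overlapped MH86 while SE21s stood above both. The daily curve differed between the parents (limma, adjusted p = 0.0017), with a range of 5.44 on the log2 scale in SE21s, 3.89 in LY2186 and 2.14 in MH86. Its level over the 17 times did not pass the test in any pair, with −0.28 ± 0.34 between SE21s and MH86, and neither did hour 21 alone, with 1.94 ± 0.997 (limma, adjusted p = 0.13). With the time point as a block the same difference at hour 21 passed, with an SE of 0.67 (limma, adjusted p = 0.022).

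Of the 6 abscisic acid genes in the lists 5 were tested. Between SE21s and MH86 3 of the 5 differed in level, beside 69% of all genes. NCED1, which makes an abscisic acid precursor, was higher in SE21s by 1.79 ± 0.26, while the hydroxylases ABA8ox2 and ABA8ox3 were lower by −0.58 ± 0.16 and −0.65 ± 0.15. At hour 0 4 of the 5 differed, beside 42.8% of all genes. NCED1 was higher in SE21s (18.2% of all genes) and ABA8ox2, ABA8ox3 and NCED5 were lower (24.6%). NCED1 and ABA8ox1 were the 2 of the 5 whose daily curve differed between the parents, beside 27.5% of all genes.

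Between the days the 32 genes gave few calls. Of the 32, 3 (9.38%) differed between the second and the first day at the same line and hour, against 42% of all genes, 2 higher on the second day (25.5%) and 1 lower (16.5%). LOC_Os02g49230 was higher on the second day by 0.28 ± 0.08 and LOC_Os06g19444 by 0.20 ± 0.06, while LOC_Os01g17050 was lower by −0.72 ± 0.27. Few calls do not show a closer repeat. The SD between days had medians of 0.44 and 1.08 in the early- and late-rising genes, against 0.28 over all genes. One term was fitted for all lines, so that it averages the night differences described above over the 3 lines. The call of LOC_Os02g49230 was lost without MH86 (limma, adjusted p = 0.11), that of LOC_Os06g19444 without SE21s (0.056) or MH86 (0.070), and that of LOC_Os01g17050 without SE21s (0.091) or LY2186 (0.35).

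Genes chosen the same way for a peak at hour 18 or hour 0 give a frame. The difference between SE21s and MH86 in the change from hour 21 to hour 0 was called in 2 of 41 genes highest at hour 18 and in 63 of 150 highest at hour 0, all with the steeper fall or smaller rise in SE21s. In level, 9 of the 41 were higher and 15 lower in SE21s, and 99 of the 150 were higher and 19 lower. Differences between these sets were not tested. Of the 32 genes 8 (25.0%) lay on chromosome 1, which holds 14.2% of all tested genes. LOC_Os06g04230 and LOC_Os06g04240 have adjacent locus numbers, and their levels had a Pearson correlation of 0.91 across the 51 libraries, which share the daily cycle. Whether this pair shares reads is not given in the sources used here, so its values are uncertain as separate measurements.

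For the series as a whole, FPKM sums ran from 824871 to 2467820 per library, fragment counts were not analysed here, and depth in fragments is unknown. Relative depths estimated from low values lay between 1 and 2.51 times the first SE21s library. The 4 leaf markers summed to 5440 to 35198 FPKM in a library, and none was at 0 throughout a line. Their median sum was 8447 FPKM for MH86, 13376 for LY2186 and 21615 for SE21s. The 5 grain markers summed to 17.7 to 35.5 FPKM in SE21s, 21.4 to 65.1 in LY2186 and 33.4 to 55.7 in MH86, and the 4 floral organ markers to 3.04 to 39.1 over all lines, with 1 at 0 throughout in each parent. By their medians leaf markers were highest in SE21s and grain markers in MH86. The floral organ sums had medians of 15.1 in SE21s, 12.5 in LY2186 and 10.2 in MH86. Single genes carried 2 of these sums. Mean levels were 26.8 FPKM for AGPL2 and 3.37 or less for the other grain markers. MADS16 had 12.2 and the other floral organ markers 1.06 or less. The grain and floral sums therefore say little about those tissues, and the part of any marker in the differences was not tested.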

How the data were processed

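The authors deposited 1 table of FPKM values, made with TopHat2 and Cuffdiff per the submitters' processing notes. The sources used here do not give their versions, the genome build, the annotation or how multiply mapped fragments were handled. Libraries were strand-specific per the labels' protocols. No column was left unmapped, and each of the 51 libraries was grouped by the line and time in its title.

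Values were analysed as log2(FPKM + 0.5), a scale that understates the change of low genes, for the 16842 of 34653 genes whose mean reached 1 FPKM. All 32 chosen genes pass this filter because they were chosen at a higher mean, so passing it says nothing about them. Linear models (limma 3.58.1, R 4.3.3) took all 51 libraries together with a trended, robust variance prior, and two-sided p-values were adjusted over all 16842 genes by Benjamini-Hochberg at 0.05. Level contrasts used the time point as a block. Rhythm contrasts used line by 24 h cosine and sine terms. Hour contrasts used a mean for each line and hour, and were also fitted with the time point as a block, since the lines share time points per the labels, and the day contrast a day term beside those means. Summaries and figures used Python 3.11.15. Deviations from these means correlated between lines of one time point with medians of 0.22, 0.17 and 0.17 over 17 time points in the 3 pairs of lines, above 0.1 at 13, 13 and 12. The fits were also run on simulated data with independent noise in each library. That simulation lacks such shared deviations, so it does not cover their effect on the hour contrasts.

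The 32 genes, the gene lists and the comparisons were chosen with earlier results of these data known. Named are list members, the 4 genes with the largest range, 2 on each side of the range limit and, per comparison, the 2 called genes with the smallest adjusted p in each direction. Other genes named were chosen after their values were seen. Alternatives were other scalings, pseudocounts of 0.1 and 1, no filter, removal of doubtful zeros (443 values in 124 genes, 1 of them in the 32), no time block, added 12 h terms, single libraries left out and genes re-chosen without a day or a line.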

Additional observations from a re-analysis of the deposited data

Results flagged for a closer look

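Each of the following results was picked out because a test of the difference between lines passed its threshold in limma. The daily curve of LOC_Os01g32770 differed between SE21s and MH86 with an adjusted p of 2.9e-06 and between LY2186 and SE21s with 0.0010. For LOC_Os01g59350 the curve differed between SE21s and MH86 (adjusted p = 4.3e-05) and between LY2186 and MH86 (0.0049). For LOC_Os10g41550 it differed between LY2186 and SE21s (adjusted p = 0.0044). The change from hour 21 to hour 0 differed between SE21s and MH86 by −3.67 on the log2 scale in LOC_Os06g19444 and by −3.56 in LOC_Os04g49450. Between LY2186 and SE21s it differed by 2.26 in LOC_Os06g19444 and by 2.06 in LOC_Os04g49450.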

How the results depend on the processing

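No direction of a named gene reversed under any alternative run. Of 433 recomputed counts of called genes, 371 kept within 1.5 times the main count or held at 0. Of these, 59 came under alternatives added after seeing the data. Those left out LOC_Os05g36330, ZT48 or the LY2186 library of ZT18, or took the time point as a replicate block at single hours. Leaving out LOC_Os05g36330 takes away 1 gene, and leaving out ZT48 removes no library of hours 18 or 21. Some added counts could thus hardly move, and their agreement says little about how firm the results are. Under the other alternatives 312 counts kept to these limits and 59 did not. The depth in fragments is unknown, so counting error cannot be set beside these values, and hour contrasts rest on 2 or 3 libraries per line. For the change from hour 21 to hour 0 between LY2186 and SE21s, the main count of 2 became 4 under median-ratio scaling, 1 under quantile scaling and 1 with a pseudocount of 0.1. For the curve of LY2186 against SE21s, the main count of 6 became 2 with no filter on low values. Without the time block the level counts were 5 for SE21s and MH86, 3 for LY2186 and SE21s, 1 for LY2186 and MH86 and 0 for LY2186 and the parental mean. With the time point as a replicate block 3 hour counts moved. LY2186 and SE21s at hour 0 gave 16 (33.2% of all genes). The change from hour 21 to hour 0 gave 5 for LY2186 and SE21s (2.19%) and 1 for LY2186 and MH86 (0.0297%). Between the parents the blocked counts were 7, 16 and 14 at hours 18, 21 and 0 and 6 for that change. Beside them stood 32%, 48% and 52.5% of all genes at those hours and 1.87% for the change. The shares of all genes thus rose under the block too. No call of the 32 genes was lost under it. Median-ratio scaling moved the median of all genes at hour 21 between SE21s and MH86 from −0.12 to −0.01, while that of the 32 genes went from 0.35 to 0.47. Under quantile scaling these were −0.07 and 0.06. Why these counts moved was not tested.

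Leaving out single libraries gave, over the settings run, 2 to 6 genes at hour 18 for SE21s and MH86, 0 to 3 for LY2186 and SE21s, and 0 to 1 for the change from hour 18 to hour 21 between the parents. At hour 21 it gave 5 to 10 for SE21s and MH86 and 1 to 7 for LY2186 and SE21s. At hour 0 it gave 13 to 15, 9 to 10 and 3 to 5 for SE21s and MH86, LY2186 and SE21s, and LY2186 and MH86. The change from hour 21 to hour 0 gave 4 to 5 between the parents and 1 to 3 between LY2186 and SE21s. The lowest count at hour 21 came without the SE21s library of ZT21.

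Choosing the genes again changed the set itself, so the counts are of other genes. Without day 1 the rule took 64 genes, 26 of them among the 32. Level counts were then 31 (SE21s and MH86), 21 (LY2186 and SE21s), 9 (LY2186 and MH86) and 9 (parental mean), and curve counts 25, 12, 3 and 2 in the same order. At hours 18 and 21 the counts were 13 and 21 for SE21s and MH86, 5 and 10 for LY2186 and SE21s, and 1 and 1 for LY2186 and MH86, and 7 genes differed between days. Without day 2 it took 19 genes, 10 shared. LY2186 and SE21s then differed in level in 5, the curve in 6 between the parents and in 0 between LY2186 and MH86. The parents differed in 8 at hour 21, 8 at hour 0 and 3 in the change between them, LY2186 and SE21s in 1 in that change, and LY2186 and MH86 in 3 at hour 0.

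Without SE21s the rule took 29 genes, 14 shared. LY2186 and SE21s differed in 16 in level, 7 at hour 18 and 16 at hour 21, the parents in 10 at hour 18, LY2186 and MH86 in 3 in the curve and 9 at hour 0, and LY2186 stood off the parental mean in 6. Without LY2186 it took 45 genes, 27 shared, with 5 for LY2186 and MH86 in level, 1 for the curve against the parental mean and 6 between days. Without MH86 it took 35 genes, 23 shared, with 10 and 0 for the curve of LY2186 against SE21s and MH86, 9 for the parents at hour 18, 1 for LY2186 and SE21s in the change from hour 21 to hour 0 and 6 between days.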

Other observations

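Among the other genes of the lists, 9 were highest at hour 21 with a range under 3, and none of them is one of the 32. VDE, the violaxanthin de-epoxidase of photoprotection, had a range of 1.99 on the log2 scale at a mean of 64.6 FPKM. The heat shock factor gene HSFA2c had 1.49, the magnesium chelatase subunit gene CHLD 1.18, the sucrose transporter gene SUT1 1.08 and the phytochrome gene PHYA 0.66. These ranges average over lines and days and were not tested.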
